A study of Homo sapiens with 115 samples.

Results

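Lysosomal genes were followed through the formation, budding and repopulation of radiation-tolerant persister (RTP) cells. The set holds 39 genes, taken by name from the 43386 entries of the gene table: 9 cathepsins and other peptidases, the cathepsin inhibitor CST3, 9 glycosidases, 8 genes of lipid handling and activation, 4 membrane proteins, the channel MCOLN1, the transcription factor TFEB and 6 subunits or partners of the proton pump. The RNA of single HCT116 cells (43 p53-/- and 72 p53+/+ cells), a human colorectal cancer line, had been amplified as full-length cDNA and sequenced, with no molecular identifiers. These genotypes are those of the sample labels, and the paper counts more p53-/- and fewer p53+/+ cells in the same total. Which cells differ is not known. Each stage has a letter: [N] for cells that were not irradiated, [P] for RTP cells at day 7 that had not yet budded, [B] for RTP cells in the act of budding and [S] for the progenies they had released, both at day 10, and [R] for repopulated cells at day 30. These days are those of the sample labels, and a figure legend of the paper gives day 9 for [B] and [S]. All were taken from a p53-/- line and a p53+/+ line. There were 7, 11, 8, 9 and 8 cells in this order of stages in the p53-/- line, and 6, 6, 28, 21 and 11 in the p53+/+ line. The irradiated stages all followed 8 Gy, and the sample labels write 8 Gy for [N] too, which the methods call unirradiated. All groups share the HCT116 background, and each line is 1 clone. The labels do not say that the cells of a stage came from separate cultures. P-values for stages in the main fit therefore measure only the spread between the sums of the lines. Those between the lines, or with the line as a block, measure how the line difference varied from stage to stage.

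Lysosomes break down proteins, sugars and lipids that reach them by endocytosis and autophagy. Their hydrolases work at the acid pH kept by the V-type proton pump, and their membrane is coated with glycoproteins such as LAMP1 and LAMP2. Cystatin C, the product of CST3, is a secreted inhibitor of the cysteine cathepsins, and TFEB is a transcription factor that binds an E-box in the promoters of many lysosomal genes. The study itself took CST3 as the leading gene of a panel chosen in these same cells, so the pattern of CST3 across stages is not independent evidence of its direction. The paper also reports CST3 protein in RTP cells of other cell lines and in xenografts, a separate single-cell data set and knockout effects. None of these was examined here.

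The promoters of the members were searched for the E-box letters CACGTG and for the longer form bound by TFEB, TCACGTGA. Both read the same on either strand, and each longer match also counts as an E-box. RefSeq gave promoters, from 250 bases before to 50 after a start site on GRCh38.p14, for 29 of the 39 members. The E-box letters stood in at least 1 promoter of 8 of these genes, or 27.6%, against 8.78% of all 27305 genes of the promoter table and 31.1% of the 74 other lysosomal genes with a promoter in it. The longer form stood in those of 5 members, or 17.2%, against 1.18% of all genes and 14.9% of the other lysosomal genes. These 5 were LAMP1, GAA, MCOLN1, CTSA and ATP6V0D1. LAMP1 held 6 E-boxes, whose first bases lay at -192, -176, -159, -142, -28 and -1 from the start, of which the nearest pair had the longer form and the last crossed the start. GAA had the longer form around E-boxes at -76 and -31, MCOLN1 around those at -41 and -14, and CTSA around that at -25, with a further E-box at -42. All positions are those of the first base of CACGTG. The 250 bases before the start are shown for LAMP1, GAA and CST3, which lead the results, and for CTSA and MCOLN1, which hold the same longer letters, each 5′ to 3′ on the gene's strand with the E-box and longer matches in capitals. The sequence of CST3 holds neither form.
LAMP1, plus strand, chr13:113296989-113297238: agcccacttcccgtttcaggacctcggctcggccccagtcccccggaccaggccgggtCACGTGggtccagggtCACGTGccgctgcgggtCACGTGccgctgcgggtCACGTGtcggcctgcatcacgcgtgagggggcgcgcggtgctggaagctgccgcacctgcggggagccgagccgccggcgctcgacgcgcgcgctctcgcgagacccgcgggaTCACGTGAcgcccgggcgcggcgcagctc
GAA, plus strand, chr17:80101331-80101580: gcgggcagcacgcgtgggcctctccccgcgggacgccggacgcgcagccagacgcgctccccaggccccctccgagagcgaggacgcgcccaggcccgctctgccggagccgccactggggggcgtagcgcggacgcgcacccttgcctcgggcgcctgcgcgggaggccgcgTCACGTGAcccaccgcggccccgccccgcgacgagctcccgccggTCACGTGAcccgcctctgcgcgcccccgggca
CTSA, plus strand, chr20:45891085-45891334: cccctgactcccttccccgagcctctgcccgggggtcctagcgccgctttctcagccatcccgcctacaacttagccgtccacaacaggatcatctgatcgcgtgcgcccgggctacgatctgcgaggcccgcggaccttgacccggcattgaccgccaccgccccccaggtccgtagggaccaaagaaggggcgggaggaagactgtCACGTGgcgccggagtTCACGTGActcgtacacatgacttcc
MCOLN1, plus strand, chr19:7522374-7522623: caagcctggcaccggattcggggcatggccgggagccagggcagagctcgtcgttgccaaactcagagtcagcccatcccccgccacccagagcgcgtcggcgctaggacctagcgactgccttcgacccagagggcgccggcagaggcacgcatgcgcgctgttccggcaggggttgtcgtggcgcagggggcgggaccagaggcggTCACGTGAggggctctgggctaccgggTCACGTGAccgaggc
CST3, minus strand, chr20:23637956-23638205: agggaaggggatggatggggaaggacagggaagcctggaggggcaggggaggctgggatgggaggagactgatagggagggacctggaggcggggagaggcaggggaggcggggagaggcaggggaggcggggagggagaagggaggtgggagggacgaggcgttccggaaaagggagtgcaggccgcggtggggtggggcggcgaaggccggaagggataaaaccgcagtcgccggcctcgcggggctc
A match of letters is a description and does not show that TFEB was bound.

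Levels are given as CPM, the counts of a gene scaled to the cell's own total, so they are shares of a cell's RNA and do not show how much RNA a cell held. The share taken by mitochondrial rRNA also moved with stage. Its medians from [N] to [R] were 1.06%, 3.29%, 4.68%, 3.14% and 2.96% in p53-/- cells and 1.02%, 2.99%, 4.59%, 3.77% and 1.89% in p53+/+ cells, and it reached 26.1% in a budding and 37.5% in a progeny cell, against at most 3.14% in an unirradiated one. Its part in the stage differences was not tested. Totals ranged from 4056329 to 100173192 counts per cell with a median of 34238237. Of the 39 members, 15 had a count in every cell and 35 in at least 100 cells. The exceptions were CTSH and CTSZ, each in 90 cells, TFEB in 65, and NEU1, a sialidase. The NEU1 row was at 0 in every cell. The table holds NEU1 under 8 entries with 16 counts in total over all cells, and so the level of NEU1 could not be read. Macrophage and monocyte markers summed to at most 8.79 CPM in any cell with all 7 at a median of 0, and endothelial markers to at most 17.9 CPM with all 3 at a median of 0. Fibroblast markers summed to at most 62.3 CPM, with 5 of 6 at a median of 0. The 5 epithelial markers summed to 1573 to 33820 CPM.

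The cells of a stage and line were summed, and the 10 sums were fitted with edgeR's quasi-likelihood test over 19894 genes, where SE is the standard error of the fold change on the log2 scale and p was adjusted by Benjamini-Hochberg over all of them and called under 0.05. Of the members, 38 passed the filter on low counts and NEU1 did not. None of the 38 was called in any of the 8 comparisons of this main edgeR fit. It called 0.658% of all genes in [B] over [N], 0.206% between the lines, 0.0704% in [S] over [N], 0.0201% in [P] over [N] and in [R] over [S], and 0% in the other comparisons. At an unadjusted p under 0.05 there were 22 members in at least 1 comparison, or 22 of 38, beside 46.2% of all genes. By comparison, 15 members had an unadjusted p under 0.05 in [B] over [N], where 18.5% of all genes did, 7 in [R] over [S] (15.1% of all genes), 7 between the lines (13.9%), 6 in [S] over [N] (13.3%), 5 in [P] over [N] (11.9%), 5 in [R] over [N] (8.6%), 3 in [B] over [P] (5.18%) and 0 in [S] over [B] (4.19%). By the sample labels each line gave 1 sum to every stage, which pairs the sums, and with the line as a block 4 members passed the test in [B] over [N], where 3.4% of all genes did, and 1 in [S] over [N], where 0.156% did. DESeq2 on the same sums called 6 members in [B] over [N] (10.7% of all genes), 2 in [P] over [N] (4.02%), 3 in [S] over [N] (4.83%), 2 in [R] over [N] (2.02%), 2 in [R] over [S] (7%), 4 between the lines (8.22%), and 0 in [B] over [P] (0.643%) and in [S] over [B] (0.256%).

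**Figure D1:**
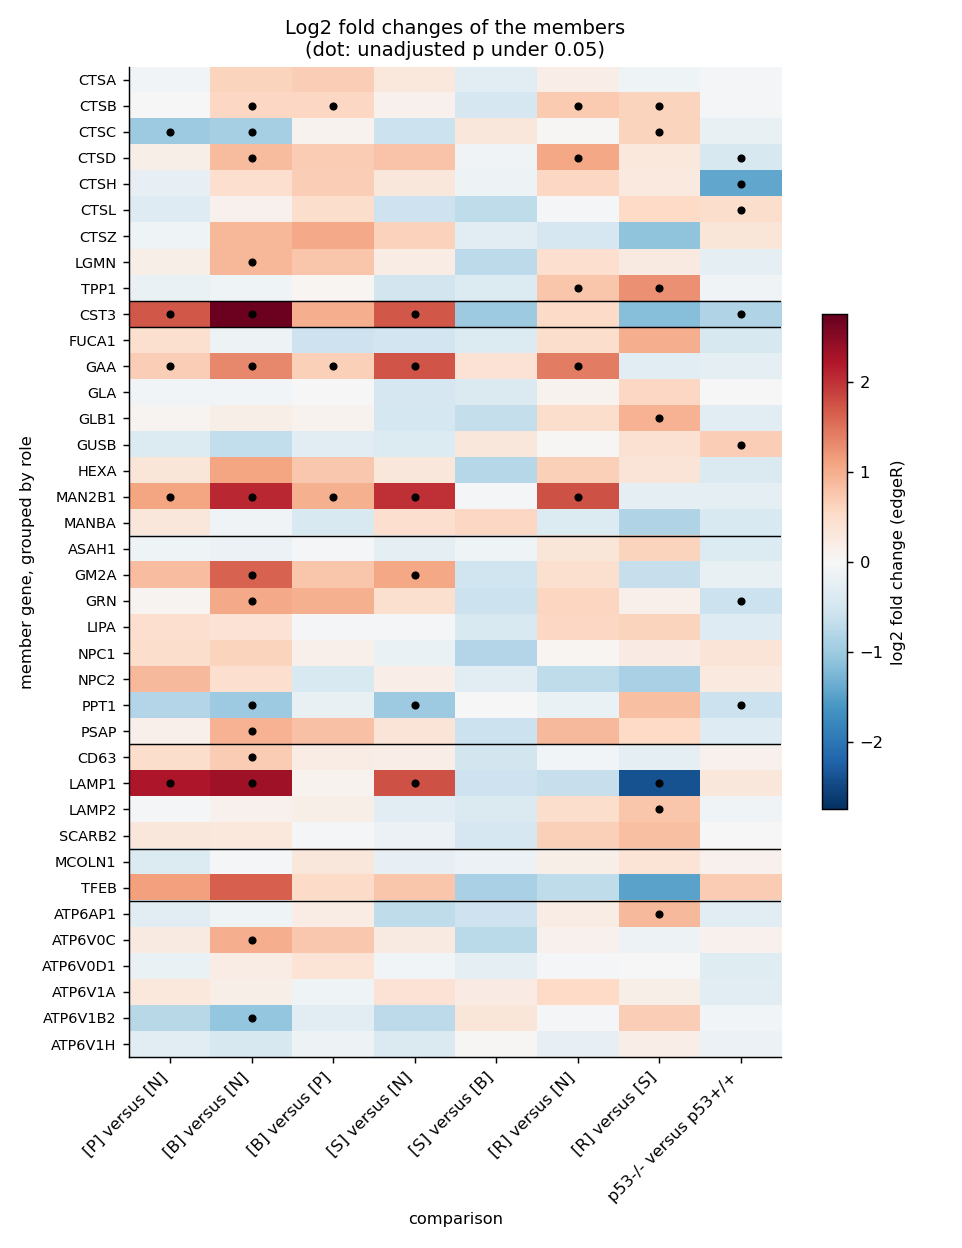
Log2 fold changes of 38 members (rows, grouped by role) in 8 comparisons (columns), from edgeR on 10 sums. Red is higher and blue lower in the group named before "versus", and a dot marks an unadjusted p under 0.05. CST3, LAMP1 and MAN2B1 have the deepest red in [B] over [N], with log2 fold changes of 2.70, 2.33 and 2.07, and LAMP1 has the deepest blue in [R] over [S], at -2.39.

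CST3 had higher median levels in the RTP stages than in unirradiated or repopulated cells in both lines. Median CST3 was 113.6, 260.4, 476, 142 and 136 CPM in p53-/- cells of the stages [N], [P], [B], [S] and [R], and 101.5, 477, 839.9, 495 and 172 CPM in p53+/+ cells. CST3 ranged over 95.6 to 152, 67.4 to 489, 24.4 to 735, 22.5 to 666 and 64.2 to 297 CPM in single p53-/- cells of these stages, and over 57.5 to 167, 217 to 619, 121 to 2743, 68.7 to 1219 and 97.5 to 375 CPM in p53+/+ cells. All 6 pre-budding p53+/+ cells lay above the highest of the 6 unirradiated ones, and 10 of 11 pre-budding p53-/- cells lay above the highest of the 7 unirradiated ones. Among budding cells, 7 of 8 p53-/- cells and 27 of 28 p53+/+ cells did so. How many of all genes separate to this extent was not computed. The log2 fold change of CST3 was 2.70 in [B] over [N] (SE 0.62, higher in both lines), a 6.51-fold difference, with adjusted p = 0.0759 from edgeR. With the line as a block, CST3 passed the test at a log2 fold change of 2.52 (SE 0.45, edgeR adjusted p = 0.0223), where 1.2% of all genes were called higher. In [P] over [N] the log2 fold change was 1.71 (SE 0.60, edgeR adjusted p = 0.344, higher in both lines). Between [B] and [P] it was 1.00 (SE 0.59), which was not called, and the difference per line was 0.63 in p53-/- and 1.19 in p53+/+.

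CST3 in the progenies stood below the budding cells and, in the p53+/+ line, above the unirradiated ones. The log2 fold change in [S] over [B] was -0.996 (SE 0.59, edgeR adjusted p = 1, lower in both lines), and in [S] over [N] it was 1.71 (SE 0.60, edgeR adjusted p = 0.296). The difference from [N] lay mainly in 1 line, at 0.36 in p53-/- and 2.44 in p53+/+. In repopulated cells the medians lay above those of unirradiated cells in both lines, and 2 of 8 p53-/- and 6 of 11 p53+/+ cells lay above the highest unirradiated cell of their line. The log2 fold change was -1.18 in [R] over [S] (SE 0.59) and 0.53 in [R] over [N] (SE 0.58), and neither was called. Per line the sums in [R] over [S] differed by -0.16 in p53-/- and by -1.62 in p53+/+, and without the [S] p53+/+ sum the log2 fold change was 0.143. In p53-/- 3 of 8 repopulated cells lay above the median of the progenies, and in p53+/+ 0 of 11 did.

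**Figure D2:**
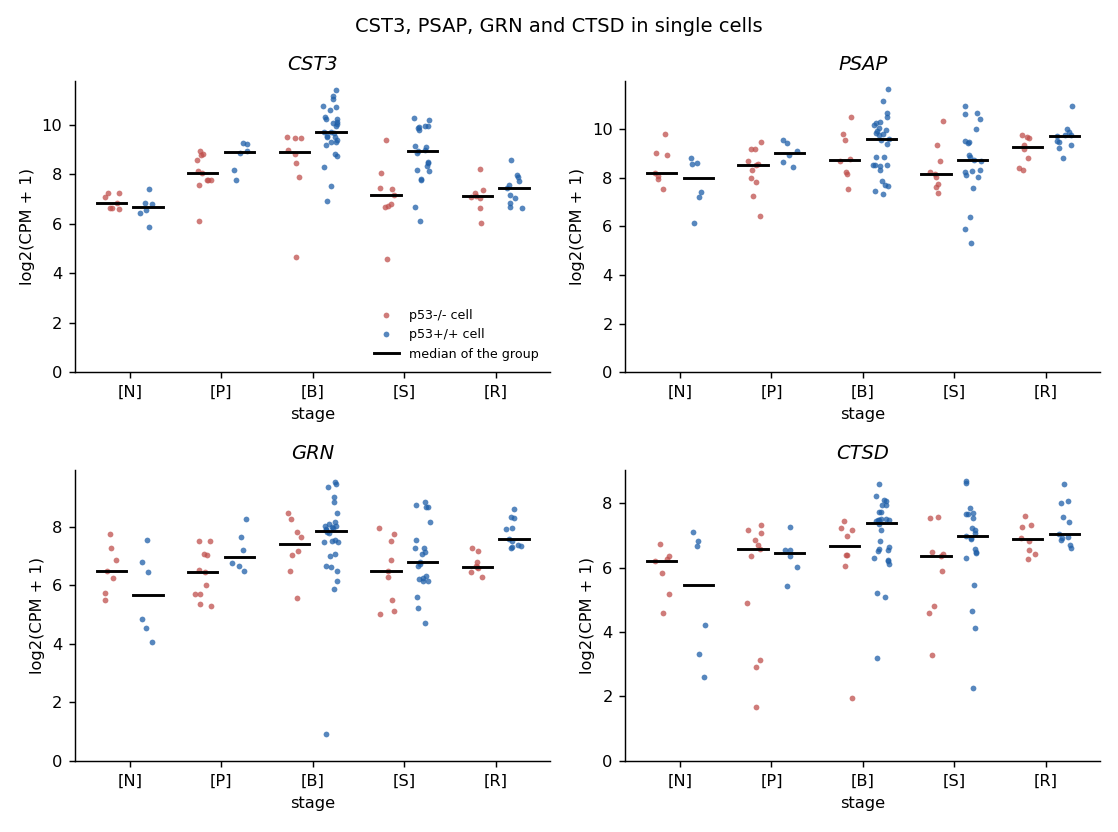
Levels of CST3, PSAP, GRN and CTSD, as log2(CPM + 1) on the vertical axis, in single cells of 5 stages (horizontal axis) and 2 lines (red, p53-/-; blue, p53+/+). Each point is 1 cell and each black bar the median of its group. The CST3 medians are highest in [B], at 476 CPM in p53-/- and 839.9 CPM in p53+/+ cells, and 1 [B] p53+/+ cell has GRN at 0.866 CPM.

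LAMP1, which codes for an abundant glycoprotein of the lysosomal membrane and has 6 E-boxes in its promoter, had higher medians in the stages [P], [B] and [S] than in unirradiated or repopulated cells of both lines. Median LAMP1 was 10.2, 61.3, 53.3, 18.8 and 7.13 CPM in p53-/- cells of the stages [N], [P], [B], [S] and [R], and 13.98, 30.7, 30.3, 31.7 and 4.40 CPM in p53+/+ cells. LAMP1 ranged over 3.04 to 24.99, 16.1 to 255, 17.4 to 478, 2.36 to 139 and 2.11 to 27.1 CPM in single p53-/- cells of these stages, and over 3.06 to 27.4, 14.2 to 87.2, 0 to 266, 0.240 to 171 and 0.708 to 19.8 CPM in p53+/+ cells. All 11 pre-budding p53-/- cells and all 6 pre-budding p53+/+ cells lay above the median of the unirradiated cells of their line. No repopulated p53+/+ cell, and 1 of 8 repopulated p53-/- cells, reached the median of the progenies. The log2 fold change of LAMP1 was 2.23 in [P] over [N] (SE 0.51, edgeR adjusted p = 0.284) and 2.33 in [B] over [N] (SE 0.51, edgeR adjusted p = 0.0715), and LAMP1 was higher in both lines in each. In [R] over [S] it was -2.39 (SE 0.51, edgeR adjusted p = 0.105, lower in both lines). With the line as a block, LAMP1 passed in [B] over [N], at a log2 fold change of 2.26 (SE 0.49, edgeR adjusted p = 0.0417). A single [B] p53-/- cell with 477.5 CPM supplied 55.5% of the LAMP1 counts of its sum. Without that cell the blocked log2 fold change was 1.71 with adjusted p = 0.0668 from edgeR, and without the [N] p53+/+ cell of name prefix 1115 (the digits that open a cell's title) it was 1.91 with adjusted p = 0.108, so the call was lost in each case.

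The other membrane proteins had smaller differences in [B] over [N], none of them called. CD63, a tetraspanin of late endosomes, had a log2 fold change of 0.70 in [B] over [N] (SE 0.30, edgeR adjusted p = 0.249) with differences of 0.62 in p53-/- and 0.78 in p53+/+. LAMP2 had 0.12 there, and 0.77 in [R] over [S] (SE 0.29, edgeR adjusted p = 0.262). SCARB2, a receptor that carries glucocerebrosidase to lysosomes, had 0.29 in [B] over [N]. All 4 membrane proteins had log2 fold changes below 0 in [S] over [B], between -0.57 and -0.40, and none had an unadjusted p under 0.05.

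Of the glycosidases, GAA and MAN2B1 stood apart from the other 6 that were tested. GAA codes for the acid alpha-glucosidase that degrades glycogen. Median GAA was 22, 32.9, 39.99, 59.7 and 41.95 CPM in p53-/- cells of the stages [N], [P], [B], [S] and [R], and 16.8, 36.3, 48.6, 87.03 and 44.5 CPM in p53+/+ cells. GAA ranged over 6.20 to 33.4, 0.592 to 95.4, 25.02 to 202, 1.501 to 128 and 7.94 to 122 CPM in single p53-/- cells of these stages, and over 4.999 to 33.9, 27.1 to 62.8, 12.1 to 157, 14.98 to 150.2 and 21.9 to 166 CPM in p53+/+ cells. All 8 budding p53-/- cells and 26 of 28 budding p53+/+ cells lay above the median of the unirradiated cells of their line, although the ranges overlapped in each. In [B] over [N] its log2 fold change was 1.33 (SE 0.28, edgeR adjusted p = 0.0642), with nearly the same difference in p53-/- (1.31) as in p53+/+ (1.35). In [S] over [N] it was 1.72 (SE 0.29, edgeR adjusted p = 0.108) and in [R] over [N] 1.41 (SE 0.28, edgeR adjusted p = 0.527), each higher in both lines. CST3 and LAMP1 stood at 0.53 and -0.63 in [R] over [N]. With the line as a block, GAA passed in [B] over [N] (log2 fold change 1.33, SE 0.25, edgeR adjusted p = 0.024) and in [S] over [N] (1.71, SE 0.25, edgeR adjusted p = 0.038, where 0.136% of all genes were called higher). The call in [S] over [N] was lost without the [N] p53+/+ cell of name prefix 1115 (adjusted p = 0.0621 from edgeR).

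MAN2B1, the lysosomal alpha-mannosidase that trims N-glycans, was a low-level gene with a similar course. Median MAN2B1 was 3.14, 6.86, 13.2, 8.92 and 10.1 CPM in p53-/- cells of the stages [N], [P], [B], [S] and [R], and 2.27, 9.99, 15.6, 15.7 and 9.89 CPM in p53+/+ cells. MAN2B1 ranged over 0 to 9.27, 0 to 29.4, 0.366 to 31.8, 0 to 32.01 and 0 to 21.4 CPM in single p53-/- cells of these stages, and over 0.749 to 13.5, 3.39 to 12.7, 0 to 49.8, 0 to 81.3 and 5.66 to 39.7 CPM in p53+/+ cells. The log2 fold change was 2.07 in [B] over [N] (SE 0.43, edgeR adjusted p = 0.0598), 2.02 in [S] over [N] (SE 0.43, edgeR adjusted p = 0.2) and 1.75 in [R] over [N] (SE 0.42, edgeR adjusted p = 0.563), higher in both lines each time. With the line as a block MAN2B1 passed in [B] over [N], at 2.04 (SE 0.40, edgeR adjusted p = 0.0291). In [B] over [P] it was 0.97 (SE 0.41) and GAA 0.65 (SE 0.28), neither called. GAA and MAN2B1 were added to the genes described in every group after their values had been seen.

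CST3, GAA and MAN2B1 kept their blocked calls in [B] over [N] without the [B] p53-/- cell highest in LAMP1, with adjusted p = 0.0186, 0.0224 and 0.0237 from edgeR in this order, and without the [N] p53+/+ cell of name prefix 1115, with adjusted p = 0.0308, 0.0307 and 0.0367. That budding cell was picked for its LAMP1 level, not for these genes. The block was not tried with a sum left out, with thinned cells or with library-size scaling. Sums per name prefix take each prefix of a stage and line as a replicate, though the labels do not say that prefixes are separate cultures. On these sums, with no block, CST3 was called in [B] over [N] (log2 fold change 2.99, edgeR adjusted p = 0.0306), where 0.0965% of all genes were called higher. There GAA, MAN2B1 and LAMP1 were not called, with adjusted p = 0.170, 0.179 and 0.0921, nor was GAA in [S] over [N], with adjusted p = 0.197.

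The remaining glycosidases ranged from -0.69 for GUSB to 1.08 for HEXA in [B] over [N], and none had an unadjusted p under 0.05. GLB1 codes for the beta-galactosidase whose activity is stained as a sign of senescence. Median GLB1 was 37.00, 24.6, 34.6, 19.99 and 46.2 CPM in p53-/- cells of the stages [N], [P], [B], [S] and [R], and 25.99, 43.9, 38.6, 24.1 and 55.5 CPM in p53+/+ cells. GLB1 ranged over 12.3 to 57.9, 0.310 to 57.5, 2.46 to 87.6, 0 to 44.4 and 14.8 to 79.7 CPM in single p53-/- cells of these stages, and over 9.72 to 50.3, 17.1 to 76.8, 0 to 159.5, 0 to 77.9 and 0.275 to 88.3 CPM in p53+/+ cells. The GLB1 ranges overlapped in each comparison made. Its log2 fold change was 0.17 in [B] over [N] (SE 0.35, with a difference of -0.12 in p53-/- and 0.48 in p53+/+) and 0.95 in [R] over [S] (SE 0.35, edgeR adjusted p = 0.253, higher in both lines). HEXA, the alpha subunit of beta-hexosaminidase, has an antisense gene in the same table, HEXA-AS1, and whether the counting used strand is not given in the sources used here.

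**Figure D3:**
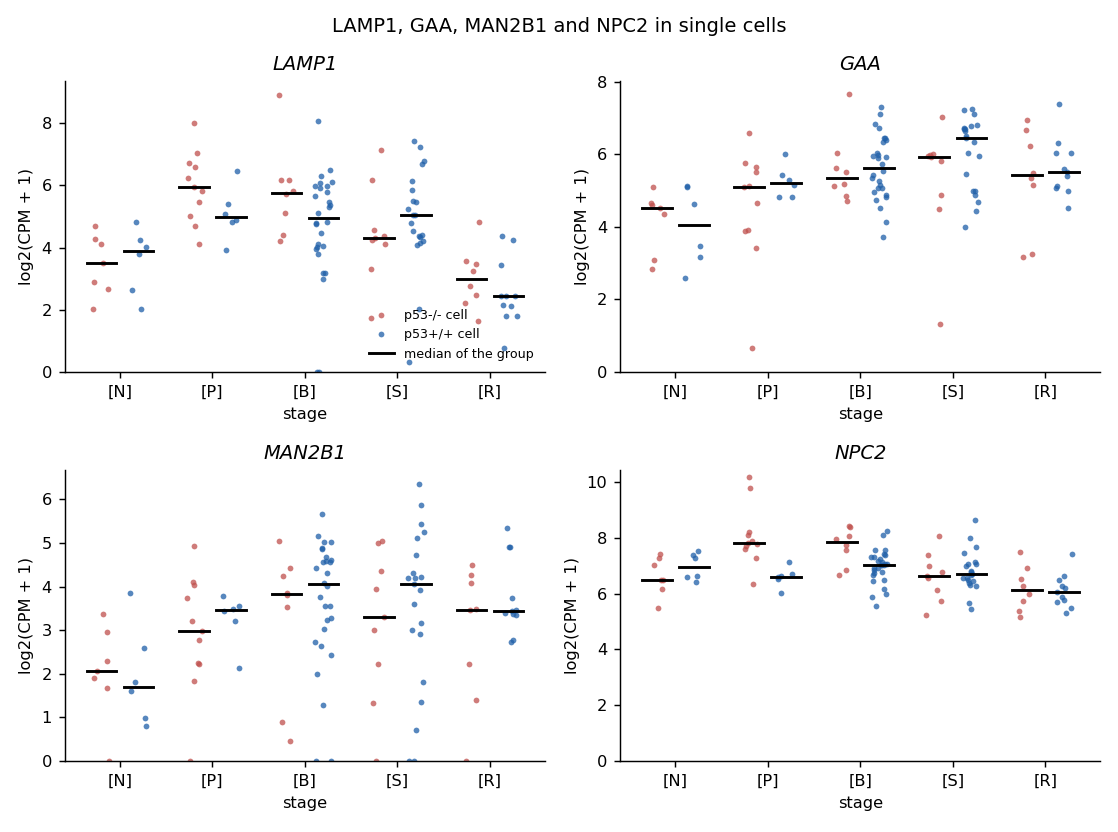
Levels of LAMP1, GAA, MAN2B1 and NPC2, as log2(CPM + 1) on the vertical axis, in single cells of 5 stages (horizontal axis) and 2 lines (red, p53-/-; blue, p53+/+), with 1 point per cell and a black bar at each median. LAMP1 medians in repopulated cells are 7.13 CPM in p53-/- and 4.40 CPM in p53+/+ cells, while GAA medians there are 42.0 and 44.5 CPM.

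Of the 8 genes of lipid handling, 6 had a log2 fold change above 0 in [B] over [N]. GM2A, the activator that presents ganglioside to HEXA, had the largest, 1.62 (SE 0.47, edgeR adjusted p = 0.119, 0.0803 with the line as a block). All 8 budding p53-/- cells, at 17.4 to 95.1 CPM, lay above the 7 unirradiated p53-/- cells, at 6.36 to 13.2 CPM. In p53+/+ the budding cells, at 0 to 286 CPM, overlapped the unirradiated ones, at 2.25 to 30.2 CPM. The share of all genes without overlap between such groups was not computed, so this is a description only. PPT1, which removes fatty acyl groups from proteins, had a log2 fold change of -1.01 in both [B] over [N] and [S] over [N] (SE 0.39, edgeR adjusted p = 0.212 and 0.324). Its median was 44.0 CPM in budding and 132 CPM in unirradiated p53-/- cells, and 86.1 CPM in budding and 183 CPM in unirradiated p53+/+ cells, and it was 124 CPM in p53-/- and 164 CPM in p53+/+ repopulated cells.

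PSAP codes for prosaposin, the precursor of the sphingolipid activator proteins, and GRN for progranulin, which is delivered to lysosomes and cut into granulins. Median PSAP was 296, 373, 428, 284 and 614 CPM in p53-/- cells of the stages [N], [P], [B], [S] and [R], and 274, 518, 773, 426 and 837 CPM in p53+/+ cells. PSAP ranged over 184 to 904, 85.8 to 717, 186 to 1446, 164 to 1282 and 318 to 871 CPM in single p53-/- cells of these stages, and over 68.98 to 450.0, 347 to 759.6, 161 to 3267, 38.6 to 1982 and 448 to 1989 CPM in p53+/+ cells. Their levels spread widely within each stage, and the budding and unirradiated cells overlapped in both lines. Median GRN was 89.7, 87.5, 172, 89.4 and 99.2 CPM in p53-/- cells of the stages [N], [P], [B], [S] and [R], and 57.4, 127, 230.1, 109.9 and 192 CPM in p53+/+ cells. GRN ranged over 44.4 to 217, 38.4 to 184, 46.05 to 358, 31.2 to 247 and 76.5 to 153 CPM in single p53-/- cells of these stages, and over 15.9 to 186, 88.9 to 310.3, 0.866 to 736, 25.3 to 459 and 156 to 388 CPM in p53+/+ cells. The lowest GRN level was that of a single [B] p53+/+ cell. In [B] over [N] the log2 fold change was 0.95 for PSAP (SE 0.40, edgeR adjusted p = 0.247) and 1.04 for GRN (SE 0.45, edgeR adjusted p = 0.257). The differences between the sums were 0.26 and 0.53 in p53-/- cells and 1.67 and 1.497 in p53+/+ cells, and whether the lines differ in this was not tested. PSAP was at 0.90 in [R] over [N] (SE 0.40, edgeR adjusted p = 0.577).

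The unirradiated cells fell into 2 name prefixes, and the labels do not say what these digits stand for. The 3 unirradiated cells of prefix 1115 had 153 to 217 CPM of GRN, all above the 10 of prefix 0109 at 15.9 to 117 CPM, and 28 of 38 members had a higher median in prefix 1115. CTSD had 76.3 to 105.6 CPM in prefix 1115 and 5.12 to 136 CPM in prefix 0109, and the PSAP medians were 514 and 260.0 CPM. LAMP1 went the other way, with a median of 5.33 CPM in prefix 1115 and 15.8 CPM in prefix 0109, while CST3 had 113.6 and 104.9 CPM. Within prefix 1115, the only one that pre-budding and unirradiated cells share, the log2 ratio of mean CPM + 1 between [P] and [N] was 1.604 in p53-/- (3 against 2 cells) and 1.96 in p53+/+ (6 against 1 cell) for CST3, and 2.88 and 3.29 for LAMP1. For GRN it was -0.30 and -0.22, and for CTSD 0.32 and -0.21. No budding, progeny or repopulated cell shares a prefix with an unirradiated one, so prefix and stage cannot be told apart in the comparisons of these stages with [N].

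NPC2, a soluble cholesterol carrier, and NPC1, its membrane partner, followed no common course. Median NPC2 was 90.01, 224, 231, 99.7 and 69.7 CPM in p53-/- cells of the stages [N], [P], [B], [S] and [R], and 128, 96.8, 130.2, 102.3 and 66.2 CPM in p53+/+ cells. NPC2 ranged over 44.2 to 173, 80.2 to 1177, 101.2 to 343, 36.98 to 267 and 35.2 to 181 CPM in single p53-/- cells of these stages, and over 83.9 to 186, 64.8 to 141, 45.9 to 306, 42.4 to 398 and 38.2 to 171 CPM in p53+/+ cells. The sums of NPC2 differed by 1.75 (log2) in p53-/- and by -0.54 in p53+/+ between [P] and [N], where the log2 fold change was 0.88 (SE 0.52, edgeR adjusted p = 0.528). Pre-budding p53-/- cells reached 1177 CPM. In [B] over [N] the log2 fold change was 0.46 for NPC2 (SE 0.51) and 0.62 for NPC1, neither called.

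Among the 9 peptidases, 7 had a log2 fold change above 0 in [B] over [N] and all 9 in [B] over [P], with medians of 0.58 and 0.67 beside 0.20 and 0.02 over all genes tested. CTSD is the main aspartic protease of lysosomes. Median CTSD was 72.8, 94.7, 103.7, 81.1 and 117 CPM in p53-/- cells of the stages [N], [P], [B], [S] and [R], and 59.3, 86.5, 168, 125 and 131 CPM in p53+/+ cells. CTSD ranged over 22.97 to 105.6, 2.20 to 159.9, 2.83 to 172, 8.79 to 188 and 75.4 to 192 CPM in single p53-/- cells of these stages, and over 5.12 to 136, 42.01 to 152, 8.05 to 387, 3.82 to 411 and 95.5 to 384 CPM in p53+/+ cells. In [B] over [N] CTSD had a log2 fold change of 0.87 (SE 0.37, edgeR adjusted p = 0.249) and in [R] over [N] 1.07 (SE 0.37, edgeR adjusted p = 0.563), and it was higher in both lines in each. CTSB, a cysteine protease that cystatin C inhibits, had 0.58 in [B] over [N] (SE 0.25), 0.57 in [B] over [P] (0.25), 0.73 in [R] over [N] (0.25) and 0.62 in [R] over [S] (0.25), each at an unadjusted p under 0.05 and each higher in both lines. LGMN, the asparaginyl endopeptidase that processes cathepsins, had 0.92 in [B] over [N] (SE 0.38).

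CTSC, the dipeptidyl peptidase that activates serine proteases, was 1 of 2 peptidases below 0 in [B] over [N], with TPP1 at -0.13, and 1 of 6 in [P] over [N]. Its log2 fold change was -0.996 in [P] over [N] (SE 0.28, edgeR adjusted p = 0.290) and -0.91 in [B] over [N] (SE 0.28, edgeR adjusted p = 0.136), lower in both lines in each. Median CTSC was 40.9 CPM in budding and 84.8 CPM in unirradiated p53-/- cells, and 54.6 CPM in budding and 79.3 CPM in unirradiated p53+/+ cells. TPP1, a tripeptidyl peptidase, had its largest difference between repopulated cells and progenies, at 1.27 (SE 0.34, edgeR adjusted p = 0.156), with medians of 44.98 against 26.3 CPM in p53-/- and 80.2 against 34.3 CPM in p53+/+ cells.

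TFEB itself was near the limit of detection. It had a count in 65 cells and a median over all cells of 0.43 CPM. By group the median lay between 0 and 2.07 CPM, and the highest cell of all had 15.6 CPM. Its log2 fold change in [B] over [N] was 1.65 with a standard error of 1.38, and it was not called. The log2 CPM of its sums was 0.51 in [N] and 1.64 in [B] in p53-/-, and -4.58 and 0.54 in p53+/+. In p53+/+ 19 of 28 budding cells lay above the highest unirradiated cell, at 0.161 CPM, and in p53-/- 3 of 8 did. At levels this low no difference is read from these values. MCOLN1, the calcium channel of the lysosomal membrane with a pair of the longer E-boxes, stayed at a low level in all stages. Median MCOLN1 was 9.84, 9.95, 14.9, 7.49 and 14.7 CPM in p53-/- cells of the stages [N], [P], [B], [S] and [R], and 9.79, 8.89, 7.002, 6.65 and 10.6 CPM in p53+/+ cells. MCOLN1 ranged over 1.98 to 16.3, 0 to 26.9, 0.599 to 23.5, 0 to 38.5 and 8.90 to 25.4 CPM in single p53-/- cells of these stages, and over 3.14 to 18.98, 4.08 to 10.2, 0 to 118, 0 to 20.3 and 2.81 to 36.2 CPM in p53+/+ cells. Its log2 fold change in [B] over [N] was -0.06 (SE 0.36), with differences of 0.22 in p53-/- and -0.36 in p53+/+. GAA and LAMP1, with the same longer letters, stood at 1.33 and 2.33 in this comparison, and CTSA at 0.61. ATP6V0D1, which also holds them, went opposite ways in the lines. The log2 CPM of its sums was 6.96 in [N] and 6.72 in [B] in p53-/-, and 6.57 and 7.21 in p53+/+.

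For the 6 genes of the proton pump the median in [B] over [N] was 0.02 on the log2 scale. ATP6V0C, the pore subunit, had 0.99 (SE 0.43) and ATP6V1B2, a subunit of the catalytic head, -1.06 (SE 0.38), the only members of this group with an unadjusted p under 0.05 there. ATP6AP1, an accessory protein, had 0.89 in [R] over [S] (SE 0.38, edgeR adjusted p = 0.303). ATP6V1A, ATP6V1H and ATP6V0D1 lay between -0.44 and 0.21 in [B] over [N].

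Over the 38 tested members, the median log2 fold change was 0.43 in [B] over [N], with 26 above 0, beside a median of 0.20 over all genes. The 15 members at an unadjusted p under 0.05 stood at 12 higher and 3 lower, where 9.37% of all genes were higher and 9.16% lower at that p. By line the median of the members was 0.37 in p53-/- and 0.66 in p53+/+, and 20 members were higher and 5 lower in both lines. In [P] over [N] the median was 0.10 beside 0.15 over all genes, and in [B] over [P] 0.20 beside 0.02. Pre-budding and budding p53-/- cells share 2 prefixes, with 1 budding and 4 pre-budding cells in each, and these went opposite ways. The median of the members in [B] over [P] was 0.50 in prefix 1118, with 30 of 38 above 0, beside -0.08 over all genes. In prefix 1206 it was -1.66, with 8 of 38 above 0, beside -0.47 over all genes. CST3 stood at 0.66 in prefix 1118 and at -3.24 in prefix 1206. The budding cell of prefix 1206 had 11265 genes detected and that of prefix 1118 had 17467, and the part of this in the difference was not tested. The 91 other lysosomal genes that could be tested had a median of 0.21 in [B] over [N] and at an unadjusted p under 0.05 there were 14 higher and 2 lower. None of these 91 was called in any comparison of the main edgeR fit.

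**Figure D4:**
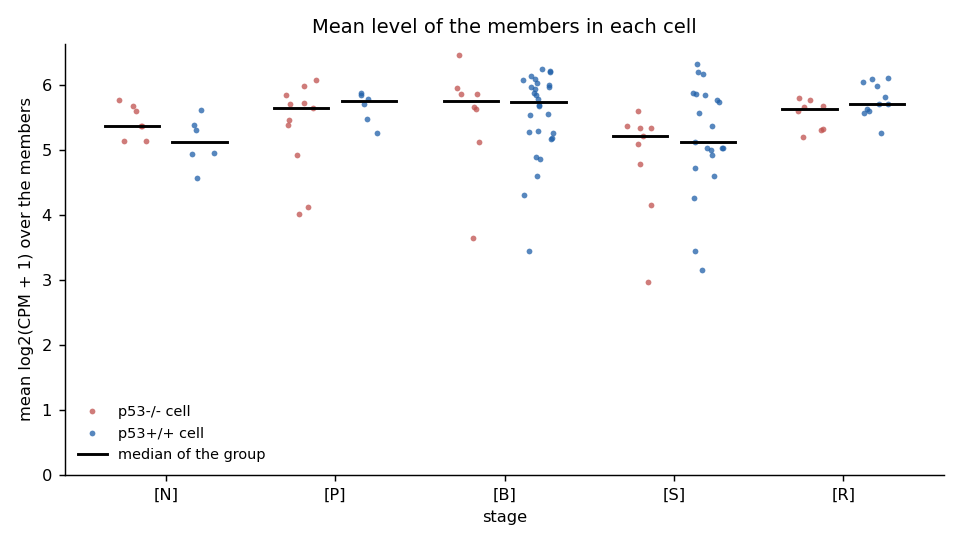
Mean of log2(CPM + 1) over the 38 tested members in each cell (vertical axis), by stage (horizontal axis) and line (red, p53-/-; blue, p53+/+), with 1 point per cell and black bars at the medians. The medians lie between 5.12 and 5.76 in all 10 groups, and single [B] and [S] cells reach down to 3.45 and 2.96. These cells had 5911 and 8170 genes detected, beside a median of 14417 over all cells.

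The mean of log2(CPM + 1) over the members had medians of 5.38, 5.65, 5.76, 5.21 and 5.63 from [N] to [R] in the p53-/- line and of 5.13, 5.75, 5.74, 5.12 and 5.72 in the p53+/+ line. The lowest cell had 3.45 in [B] p53+/+ and 2.96 in [S] p53-/-, against 4.57 in [N] p53+/+ and 5.20 in [R] p53-/-. That [B] cell had 5911 genes detected, with the lowest total of the series, and that [S] cell 8170, beside a median of 14417 over all cells. The number of genes detected went with this mean in some groups, with a Spearman correlation across cells of 0.83 in [B] p53-/- (8 cells), 0.85 in [P] p53-/- (11 cells) and 0.46 in [S] p53+/+ (21 cells), and its part in the spread was not tested.

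Progenies [S] were set against the budding cells [B]. The median log2 fold change over the members was -0.39, with 31 of 38 below 0, beside 0.01 over all genes, and no member had an unadjusted p under 0.05, where 2.65% of all genes were higher and 1.54% lower at that p. Both lines went this way, with medians of -0.63 in p53-/- and -0.14 in p53+/+, and 20 members were lower and 5 higher in both. All 8 genes of lipid handling lay at or below 0, among them PSAP at -0.59 (SE 0.40) and GRN at -0.60 (SE 0.45). CTSD was at -0.09 (SE 0.37), NPC2 at -0.28 (SE 0.51) and GAA at 0.39 (SE 0.28). LAMP1 was at -0.57 (SE 0.49), with opposite differences of -1.499 in p53-/- and 0.41 in p53+/+.

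Budding cells and progenies share name prefixes, so the same comparison was made within cells of 1 line and prefix, in 4 prefixes of the p53-/- line and 7 of the p53+/+ line. CST3 was lower in [S] in 10 of 11, with log2 ratios of mean CPM + 1 between -2.28 and 2.06 and a median of -0.71. The exception was p53-/- prefix 1206, with 1 cell in each stage, where the budding cell had the lowest CST3 level of all [B] cells, 24.4 CPM. CD63 was also lower in 10 of 11, and GRN, HEXA and ATP6AP1 in 9. CTSD, by contrast, was higher in 7 of 11 and GAA in 7, and CTSH and GUSB were higher in 9. The lowest ratio of CST3 came from p53+/+ prefix 707, where the only progeny by its stage label has the letter of budding cells in its title, the 1 mismatch among 62 titles with a stage letter. Without that prefix CST3 was lower in 9 of 10, with ratios between -1.79 and 2.06 and a median of -0.60, and without that cell the calls of members in the fits were the same genes but for PPT1, called lower in [B] over [N] with the block. Over all members, 26 of 38 were lower in more than 5 prefixes, and the median of the members was below that of all genes in 8 of 11.

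**Figure D5:**
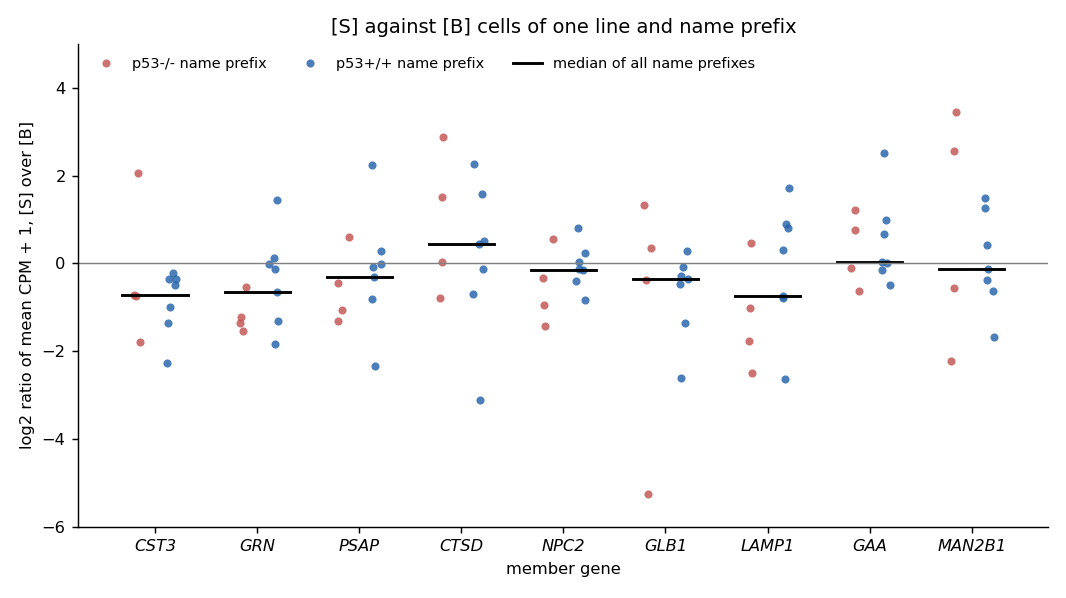
Log2 ratio of mean CPM + 1 in [S] over [B] cells (vertical axis) for 9 members (horizontal axis), with 1 point for each line and name prefix that holds both stages (4 in p53-/-, red; 7 in p53+/+, blue) and black bars at the median of all 11. CST3 lies below 0 in 10 of 11 prefixes with a median of -0.71, while CTSD has a median of 0.44.

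In [R] over [S] the median log2 fold change of the members was 0.27, with 26 of 38 above 0, beside -0.08 over all genes. It was 0.0276 without the [S] p53-/- sum and 0.48 without the [S] p53+/+ sum. By line it was 0.40 in p53-/- and 0.13 in p53+/+, and 24 members were higher and 11 lower in both lines. LAMP1 and TPP1 had the smallest unadjusted p among them, in opposite directions. GLB1, LAMP2, CTSB, ATP6AP1 and CTSC were the other members at an unadjusted p under 0.05, all higher, where 6.11% of all genes were higher and 9.01% lower at that p. PSAP was at 0.54 (SE 0.40) and GRN at 0.15 (SE 0.45). In [R] over [N] the median was 0.27 with 27 above 0, beside 0.02 over all genes. By line it was 0.01 with 19 of 38 above 0 in p53-/- and 0.51 with 29 of 38 above 0 in p53+/+, and it was 0.124 without the [R] p53+/+ sum and 0.479 without the [N] p53-/- sum. At an unadjusted p under 0.05 there were 4.47% of all genes higher, and 5 members, GAA, MAN2B1, CTSB, CTSD and TPP1. LAMP1 was at -0.63 there (SE 0.49). No repopulated cell shares a name prefix with another stage, so prefix and stage cannot be told apart here.

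Between the lines more members lay lower than higher in p53-/- cells. With stages as blocks the median log2 fold change of p53-/- over p53+/+ was -0.20, with 27 of 38 below 0, beside -0.005 over all genes. From [N] to [R] the median difference by stage was 0.14, -0.16, -0.22, -0.51 and -0.38, and in progenies 33 of 38 members were lower in the p53-/- line. Members at an unadjusted p under 0.05 were PPT1 at -0.60 (SE 0.15), CTSH at -1.42 (0.45), CST3 at -0.83 (0.28), GRN at -0.60 (0.22) and CTSD at -0.44 (0.19), all lower, and GUSB at 0.67 (0.19) and CTSL at 0.49 (0.20), both higher. At that p 6.91% of all genes were higher and 7% lower. PPT1, CTSH and GAA were lower in p53-/- in all 5 stages, GAA by small differences of -0.47 to -0.10, and GUSB, the beta-glucuronidase, was higher in all 5. The share of all genes that keep 1 direction in all 5 stages was not computed, so this is a description only. CST3 and GRN were lower in p53-/- in 4 of 5 stages, with [N] as the exception in both. None of the members was called in the main edgeR fit, the smallest adjusted p being 0.128 for PPT1. On sums per name prefix, edgeR called CST3 and GRN lower in p53-/-, where 810 of 19696 genes were called lower. DESeq2 on the sums of the main fit called CST3, CTSH and PPT1 lower and GUSB higher, where 8.22% of all genes were called. In [R] each line has 1 name prefix of its own, so line and prefix cannot be told apart there. GRN had its largest difference in that stage, at -1.24. Each line is 1 clone, so a difference between the genotypes cannot be told apart from one between clones.

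Within a stage and line, the members were weakly correlated from cell to cell. The median Spearman correlation of CPM over pairs of members was 0.26 in [P] p53-/- (11 cells), 0.24 in [B] p53-/- (8 cells), 0.21 in [B] p53+/+ (28 cells), 0.20 in [S] p53-/- (9 cells), 0.28 in [S] p53+/+ (21 cells), 0.10 in [R] p53-/- (8 cells) and 0.11 in [R] p53+/+ (11 cells). The points are cells that share depth and amplification, and the values are given as a description. The member closest to CST3 was GAA in [B] p53+/+ cells, at 0.48, and CD63 in [S] p53+/+ cells, at 0.50. In repopulated p53+/+ cells it was GRN, at 0.90, and in budding p53-/- cells MAN2B1, at 0.86. The closest member was CTSH in [P] p53-/- cells, at 0.65, TPP1 in [S] p53-/- cells, at 0.77, and GUSB in [R] p53-/- cells, at 0.95, so it was another gene in each of the 7 groups.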

How the data were processed

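Counts per gene and cell were used as the authors deposited them, for all HCT116 cells. The submitters' processing notes name fastp, HISAT2 2.0, Bowtie2, RSEM and DESeq2, and the study's methods give GRCh38 as the genome to which HISAT2 aligned the trimmed reads, with StringTie for gene expression. Which tool made the counts is not given in the sources used here. Totals of 4056329 to 100173192 counts per cell set the precision, and reads without molecular identifiers are not independent molecules.

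CPM was computed from the deposited counts with the cell's total over all 43386 entries. Counts were summed over cells of a stage and line into 10 sums and fitted with edgeR 4.0.16 in R 4.3.3 (TMM, robust quasi-likelihood, stage as the factor), keeping 19894 genes that passed filterByExpr at a minimum count of 10 with a count in at least 12 cells. The lines were compared with stage as a block. P-values were adjusted by Benjamini-Hochberg over all 19894 genes. The test was tried on simulated data, where it recovered 4%, 48%, 84% and 100% of genes changed 2-, 4-, 8- and 16-fold in [B] over [N] (50 each, 19792 genes), with 5 false calls. Sums of 1 line pair by cell line, and their deviations correlated between stages at 0.074 to 0.216. Alternatives were the line as a block, library-size scaling, no filter, thinning to 15435056 counts (12 cells left out), sums per name prefix, DESeq2 1.42.0 on sums and on cells, and leaving out each sum. Leaving out single cells was added after seeing the data.

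The members and gene lists were chosen with earlier results of these data known. All members could be named. Values in every stage and line were set for members called in a comparison and for CST3, CTSD, PSAP, GRN, LAMP1, GLB1, NPC2, TFEB and MCOLN1, and for other lysosomal genes only if called. The medians of TFEB are given only as a range over the groups. A check of the lines is not reported here. GAA and MAN2B1 are described in full after their values were seen. Promoters came from RefSeq (GRCh38.p14). Figures were drawn with matplotlib 3.10.9.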

Additional observations from a re-analysis of the deposited data

Results flagged for a closer look

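For 11 genes in 6 stage and line groups of 4 to 10 cells, 66 pairs in all, there were 14 where the highest cell lay further from the next than Dixon's 95% criterion allows, where chance gives about 1 in 20 for independent normal values, which these skewed levels of genes from shared cells are not. In p53-/- progenies these were CST3 at 666 CPM, PSAP at 1282 CPM, LAMP1 at 139 CPM, TFEB at 7.30 CPM, MCOLN1 at 38.5 CPM and GAA at 128 CPM. In p53-/- budding cells they were LAMP1 at 477.5 CPM and GAA at 202 CPM. In p53-/- repopulated cells they were CST3 at 297 CPM, LAMP1 at 27.1 CPM and TFEB at 1.76 CPM. In the p53+/+ line they were LAMP1 at 87.2 CPM in pre-budding cells, and TFEB at 0.161 CPM and MAN2B1 at 13.5 CPM in unirradiated cells.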

How the results depend on the processing

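Among the log2 fold changes of single members, 743 alternatives kept direction and call, 84 gained a call and 8 turned direction, beside 297 and 9 where a sum was left out. With the line as a replicate block, 4 members were called higher in [B] over [N] and 1 in [S] over [N], and genes called were 677 in [B] over [N], 31 in [S] over [N], 6 in [B] over [P] and 76 in [R] over [S]. The block changed no other call of a member.

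With no filter on low counts, members called higher were 2 in [P] over [N], 5 in [B] over [N] and 4 in [S] over [N], with 1 lower in [R] over [S]. Of the 33896 genes then tested, those called were 407 in [P] over [N], 1276 in [B] over [N], 186 in [B] over [P], 524 in [S] over [N], 99 in [S] over [B], 186 in [R] over [N], 701 in [R] over [S] and 412 between the lines. DESeq2 on the same sums called 1 member higher and 1 lower in [P] over [N], 5 and 1 in [B] over [N], 3 and 0 in [S] over [N], 2 and 0 in [R] over [N], 1 and 1 in [R] over [S], and 1 and 3 between the lines, with 799, 2134, 960, 401, 1393 and 1635 genes in this order, and 128 genes in [B] over [P] and 51 in [S] over [B]. DESeq2 with cells as replicates, where cells are not independent, called 3 and 1 members in [P] over [N], 11 and 1 in [B] over [N], 6 and 0 in [B] over [P], 6 and 0 in [S] over [N], 13 and 1 in [R] over [N], and 5 and 3 in [R] over [S]. Of the 19894 genes, it called 1515, 3291, 567, 1155, 2064 and 2359 in this order, and 34 in [S] over [B]. It was not run between the lines.

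Sums per name prefix, with 19696 genes tested, called CST3 alone of the members in [B] over [N] (1 member higher, with 138 genes). Between the lines they called 2 members lower, CST3 and GRN. Genes called were 0 in [P] over [N], [S] over [N] and [R] over [S], 153 in [S] over [B] and 1275 between the lines. The [N] and [P] cells of the shared name prefix gave 36 genes. Library-size scaling gave 72 genes in [B] over [N], 0 in [R] over [S] and 27 between the lines. Thinned cells gave 1 gene in [B] over [P], 9 in [S] over [N], 1 in [R] over [S] and 225 between the lines, and the line without stage block gave 1. The member median in [B] over [P] was 0.36 with prefix sums and 0.32 with cells in DESeq2, and 0.49 in [R] over [S] with library-size scaling.

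Without the [B] p53-/- cell highest in LAMP1, 202 genes were called in [B] over [N] and 0 in [R] over [S]. With the line as a replicate block as well, 792 genes and 3 members higher were called in [B] over [N], 49 genes in [B] over [P], 31 genes and 1 member in [S] over [N] and 62 genes in [R] over [S]. Without the [N] p53+/+ cell of name prefix 1115, genes called were 0 in [P] over [N], 48 in [B] over [N], 0 in [S] over [N], 0 in [R] over [S] and 139 between the lines. With the block as well they were 0, 458, 7 and 0 in the 4 stage comparisons and 2 in [B] over [P], with 4 members higher and 1 lower in [B] over [N]. Without the [S] p53+/+ cell of name prefix 707, 0 genes were called in [R] over [S], and with the block as well 704 in [B] over [N], with 4 members higher and 1 lower, 6 in [B] over [P], 31 in [S] over [N], with 1 member higher, and 71 in [R] over [S].

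Leaving out each sum gave 0 to 14 genes called in [B] over [N], 0 to 1 in [S] over [N], 6 to 73 between the lines and 0 in the others, and 0 members throughout. The member median was 0.41 to 0.49 in [B] over [N], 0.24 to 0.42 in [B] over [P], -0.02 to 0.22 in [P] over [N], 0.12 to 0.48 in [R] over [N], 0.0276 to 0.48 in [R] over [S], -0.67 to -0.17 in [S] over [B], -0.25 to 0.28 in [S] over [N] and -0.26 to -0.12 between the lines. The lone sum left in a stage is assumed to vary like the other stages.

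Direction turned for CTSD in [S] over [B] (0.091 with prefix sums), for LAMP1 there (0.048 without the cell highest in LAMP1, 0.0604 with the replicate block too), and for MCOLN1 in [B] over [N] (0.0678 with library-size scaling, 0.0431 thinned, 0.123 with cells in DESeq2, 0.176 without the [N] cell of prefix 1115 and 0.173 with the block too). Leaving out sums, CTSD ranged over -0.651 to 0.293, LAMP1 over -1.12 to 0.0315 and NPC2 over -0.682 to 0.0066 in [S] over [B], MCOLN1 over -0.269 to 0.118 in [B] over [N], and CST3 over -1.85 to 0.143 and GRN over -0.598 to 0.641 in [R] over [S]. The cause was not tested.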
